A study of Xenopus laevis with 12 samples.

Results

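Genes of the cilium and the centriole were followed through Xenopus laevis ectoderm explants that were injected with lacZ, kctd15, wnt3a with chordin, or wnt3a, chordin and kctd15 together. They were taken by name: every gene symbol that opens with cfap, ift, tekt, dnah, dnai, dnal, dnaaf, rsph, odf, spag, bbs, drc or cep followed by a digit, plus foxj1 and ccno. This gave 83 of the 11303 gene symbols on the array. Xenopus laevis is allotetraploid, and the homeologs of a gene on its long and short chromosome sets carry the suffixes .L and .S and were counted apart; ignoring the suffix the 83 are 71 genes. By prefix they fell into 35 axoneme genes (cfap, tekt, dnah, dnai, dnal, dnaaf, rsph, drc), 6 outer dense fibre and sperm antigen genes (odf, spag), 16 transport genes (ift, bbs), 22 centriole genes (cep) and 4 regulators (foxj1 and ccno). All 83 had a value on every array, and none was removed by a filter on low values.

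The explants were animal caps, the prospective ectoderm that covers the blastula. Embryos received the mRNAs at the 2-cell stage, caps were cut at stage 9 and harvested at stage 15, and their total RNA was hybridised to an Affymetrix 3' expression array. Each of the 4 groups had 3 arrays: lacZ alone, the control mRNA; kctd15 alone; wnt3a and chordin together (wnt3a+chordin); and wnt3a, chordin and kctd15 together (wnt3a+chordin+kctd15). The series was made to find targets of Kctd15, which is known as an inhibitor of neural crest formation, in caps given a Wnt ligand and the BMP antagonist Chordin. The labels give neither mRNA doses nor the number of caps pooled per array, and do not say that replicates came from separate clutches, so p-values measure the spread between these arrays only.

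An animal cap cultured alone becomes epidermis, and in Xenopus this epidermis carries multiciliated cells beside ionocytes, small secretory cells and mucus-producing cells. A multiciliated cell amplifies its centrioles, docks them at the surface as basal bodies and grows a motile cilium from each one; Foxj1 switches on genes of the motile axoneme and Ccno is needed for the amplification of centrioles. Intraflagellar transport and the BBSome carry cargo in motile and immotile cilia alike, and many centriole proteins serve every dividing cell.

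Values are the authors' log2 expression values per probe set, so a difference of 1 is a 2-fold change. The 75th percentile of the arrays lay between 9.13 and 9.17. Among the injected genes, the wnt3a.S probe set read 12.02 to 12.97 on the 6 arrays labelled with wnt3a and 3.87 to 6.43 on the others. The kctd15.L probe set went against its label: it read 3.52 to 6.77 on the 6 arrays labelled kctd15 and 10.22 to 11.22 on the others, and the labels do not say which part of the transcript the injected mRNA held. The chrd.1.S probe set was high on the 6 arrays labelled with chordin (8.5 to 11.14) and also on replicate 3 of lacZ (9.37) and replicate 3 of the group labelled kctd15 (9.08). Replicate 3 of lacZ and replicate 2 of wnt3a+chordin+kctd15 stood apart by somitic muscle genes, whose mean over 21 genes was 7.25 and 7.89 there against 4.77 and 4.61 on the other lacZ arrays and 5 and 6.08 on the other arrays of the latter group. Counts below are therefore also given without these 2 arrays. The same muscle mean was 6.93 and 6.81 on replicates 2 and 3 of wnt3a+chordin, against 4.85 on replicate 1, and these arrays stay in all such counts.

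**Figure D1:**
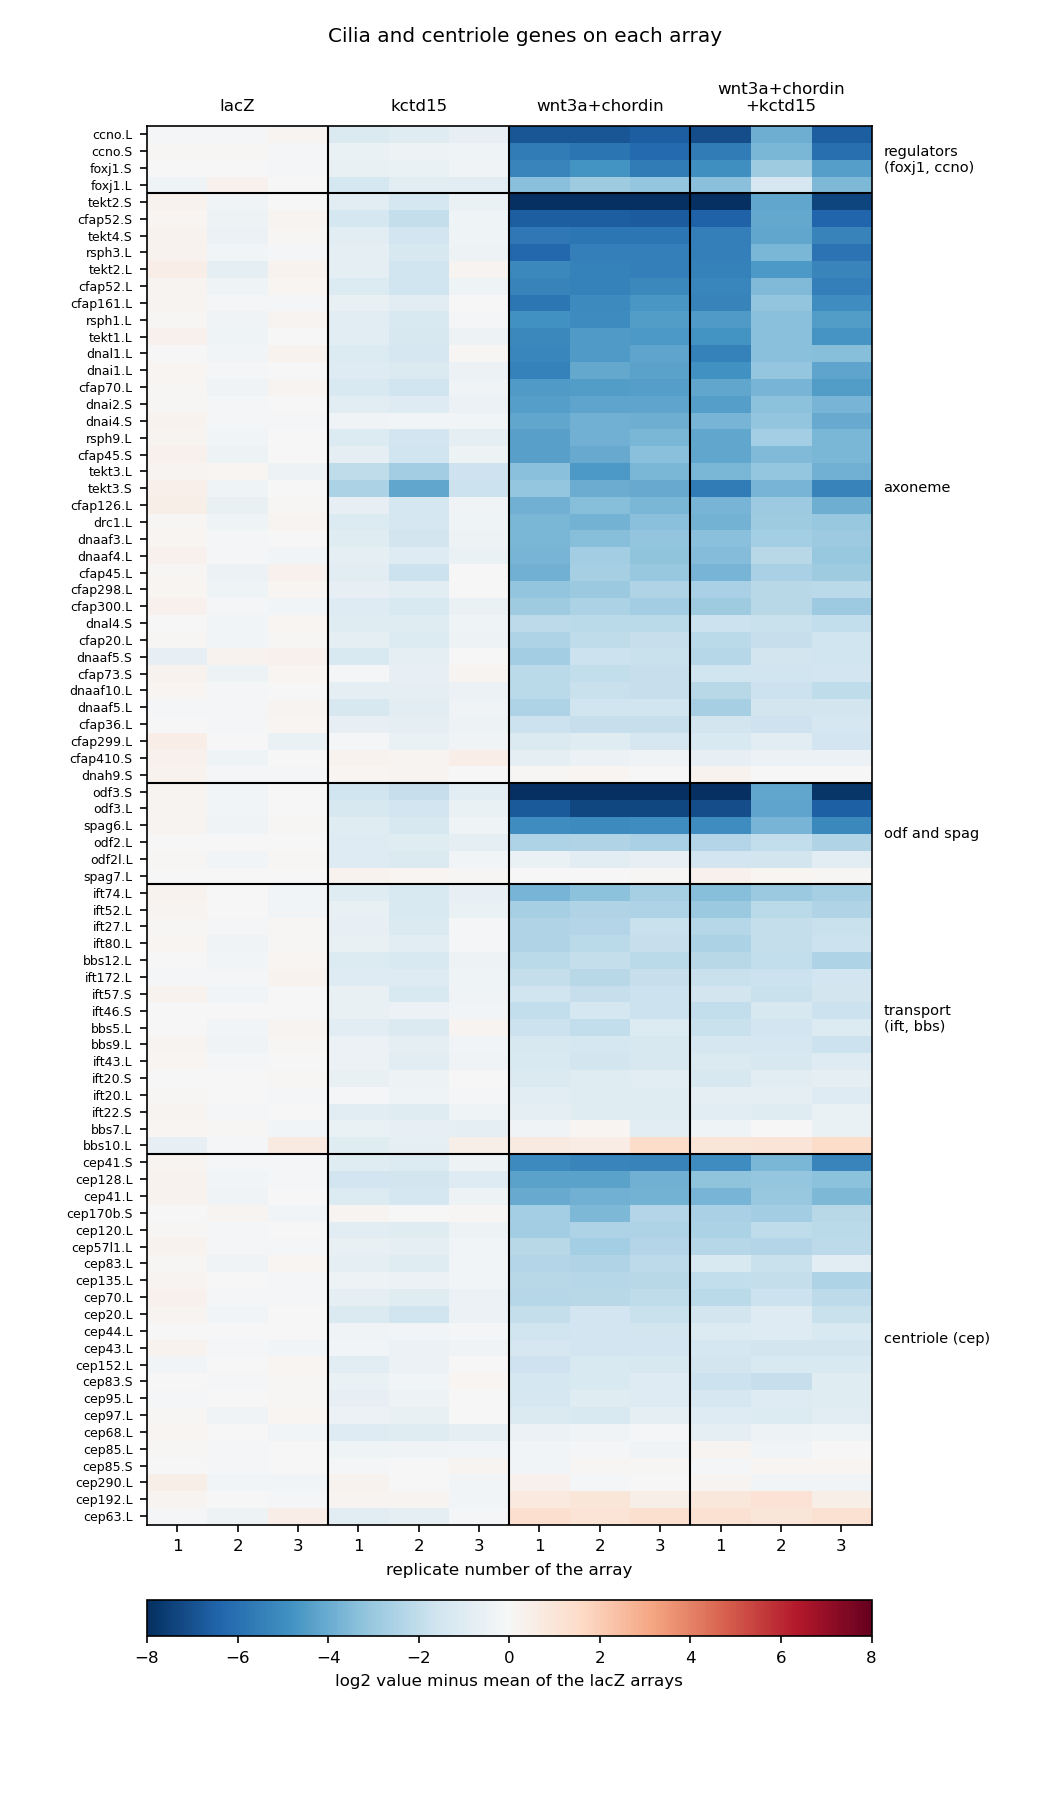
Log2 value of each of the 83 genes (rows, by subgroup) on each of the 12 arrays (columns, by group and replicate number) minus the gene's mean over the 3 lacZ arrays; blue is lower and red is higher than lacZ. The columns with wnt3a and chordin are blue for most genes, with the deepest blue among the regulators, axoneme genes and odf and spag genes, and replicate 2 of wnt3a+chordin+kctd15 is paler than its neighbours.

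With wnt3a and chordin, most genes of the cilium were lower than in lacZ caps. Of 83 genes 73 were lower (limma, adjusted p under 0.05), 2 were higher and 8 did not pass, while 17.1% of all 32475 probe sets were lower and 24.2% were higher. The median log2 fold change of the 83 was -2.27, against 0.11 over all probe sets. A fall of at least 4-fold was called for 51 genes, where 5.61% of probe sets had one, and a fall of at least 16-fold for 21, where 1.24% had one. In 73 genes the 3 wnt3a+chordin arrays lay wholly below the 3 lacZ arrays, which held for 20.6% of probe sets. In RNA from whole caps, fewer multiciliated cells and less of each RNA per cell cannot be told apart. Without replicate 3 of lacZ and replicate 2 of wnt3a+chordin+kctd15 71 were lower and 2 higher.

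Of the 4 regulators 3 fell by at least 16-fold, and foxj1.L fell by 8.52-fold. The foxj1.S probe set read 12.13, 12.12 and 12.02 in lacZ caps and 6.8, 7.28 and 6.52 with wnt3a and chordin (log2 fold change -5.22, SE 0.42, adjusted p = 7.57e-06). For ccno.L the values were 12.13, 12.18 and 12.45 in lacZ caps and 5.38, 5.4 and 5.67 with wnt3a and chordin (log2 fold change -6.77, SE 0.63, adjusted p = 1.73e-05). Neither gene's groups overlapped, and the gap was over 4 log2 units in each. The ccno.S probe set fell from 10.06 ± 0.14 (SD, n = 3) to 4.17 ± 0.31 and the foxj1.L probe set from 9.69 ± 0.33 to 6.6 ± 0.27, so that all 4 regulators passed.

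Of the 35 axoneme genes, 34 fell, with a median log2 fold change of -3.7. The tektins, filament proteins within the doublet microtubules, had the lowest median among the axoneme prefixes: all 6 passed, with a median of -5.06. The tekt2.S values were 12.16, 11.6 and 11.88 in lacZ caps and 3.8, 3.23 and 3.9 with wnt3a and chordin (log2 fold change -8.24, SE 0.78, adjusted p = 1.92e-05), a 302-fold lower level. For tekt4.S they were 12.14, 11.39 and 11.95 and 6.12, 6.04 and 6.07 (log2 fold change -5.75, SE 0.37, adjusted p = 2.4e-06). The lacZ arrays stood 5 or more log2 units above every wnt3a+chordin array in both genes.

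The radial spoke genes followed closely, with a median of -4.79 over rsph1.L, rsph3.L and rsph9.L. Their lowest change was that of rsph3.L (log2 fold change -5.73, SE 0.51, adjusted p = 1.27e-05). Genes of the dynein arms fell too: the intermediate chain dnai1.L read 11.0, 10.67 and 10.84 in lacZ caps and 5.46, 6.73 and 6.55 with wnt3a and chordin (log2 fold change -4.59, SE 0.43, adjusted p = 1.92e-05), and the light chain dnal1.L had a log2 fold change of -4.67 (SE 0.55). The arrays of the 2 groups were again separate in both. The 1 gene of the nexin-dynein regulatory complex, drc1.L, which ties neighbouring doublets together, had a log2 fold change of -3.59 (SE 0.29).

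All 14 cfap genes fell, with a wide range from -6.63 for cfap52.S to -0.53 for cfap410.S. The product of cfap52 lies inside the doublet microtubules, as tektins do. Its .S probe set read 11.37, 10.83 and 11.46 in lacZ caps and 4.6, 4.6 and 4.57 with wnt3a and chordin (log2 fold change -6.63, SE 0.58, adjusted p = 1.18e-05). The cfap410.S values, 6.08, 5.4 and 5.78 against 4.96, 5.25 and 5.47, lay close together, and its call (adjusted p = 0.0428) was lost with single arrays left out. The 5 dnaaf genes, whose products assemble dynein arms in the cytoplasm before they enter the cilium, had a median of -2.1 and the lowest change in dnaaf3.L (-3.41, SE 0.26).

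The exception among axoneme genes was dnah9.S, a dynein heavy chain, which read 5.98, 5.61 and 5.55 in lacZ caps and 5.81, 5.87 and 5.77 with wnt3a and chordin (log2 fold change 0.11, SE 0.13, adjusted p = 0.574). These values overlapped. A dimmer probe set of the same gene, not the one used by the rule of highest mean, had a log2 fold change of -1.22 (limma, adjusted p = 0.000314). The probe sets of dnah9.S thus disagree, but the dimmer one had a mean of 4.17 over the arrays. That is below the 25th percentile of every array (5.03 to 5.1).

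Of the 6 odf and spag genes 5 fell. The odf3.S values were 11.67, 11.22 and 11.44 in lacZ caps and 3.46, 3.07 and 3.12 with wnt3a and chordin (log2 fold change -8.23, SE 0.84, adjusted p = 3.18e-05), next to tekt2.S the lowest change among the 83. Its homeolog odf3.L changed by -7.09 (SE 0.59) and spag6.L, a protein of the central apparatus, by -5.02 (SE 0.35). The 6 probe sets of spag6.L spread from -6.54 to -0.14. The one at -0.14 had a mean of 3.18 over the arrays, below the 25th percentile of every array (5.03 to 5.1). Smaller falls were found for odf2.L (-2.49, SE 0.14), a component of the appendages of the mother centriole, and for odf2l.L (-0.7, adjusted p = 0.0428), whose call was lost with single arrays left out. The spag7.L values did not pass (0.05, adjusted p = 0.748).

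The 16 transport genes changed less: 14 fell, their median was -1.64, and none fell by 16-fold. All 11 ift genes were among the 14. The largest fall was that of ift74.L, a subunit of the complex that moves cargo towards the tip, which read 8.9, 8.56 and 8.39 in lacZ caps and 4.92, 5.35 and 5.95 with wnt3a and chordin (log2 fold change -3.21, SE 0.28, adjusted p = 1.22e-05). Its groups did not overlap. The log2 fold changes of ift52.L (-2.51), ift27.L (-2.18) and ift80.L (-2.14), of the same complex, came next. That of ift22.S (-0.89, limma, adjusted p = 0.00274) was the smallest of the 11. A dimmer probe set of ift22.S did not pass (-0.25, adjusted p = 0.166). Its mean over the arrays was 5.0, below the 25th percentile of every array (5.03 to 5.1).

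Among the bbs genes 3 of 5 fell, bbs12.L (-2.05, SE 0.22), bbs5.L (-1.6) and bbs9.L (-1.33). The BBSome subunit gene bbs7.L did not pass (-0.34, adjusted p = 0.281). The chaperonin-like gene bbs10.L read 5.8, 6.35 and 7.15 in lacZ caps and 7.14, 7.02 and 7.9 with wnt3a and chordin (log2 fold change 0.92, SE 0.43, adjusted p = 0.112). Its lacZ arrays spanned the widest range of any of the 83, the groups overlapped, and with the replicate number as a block it was called higher (adjusted p = 0.0038).

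**Figure D2:**
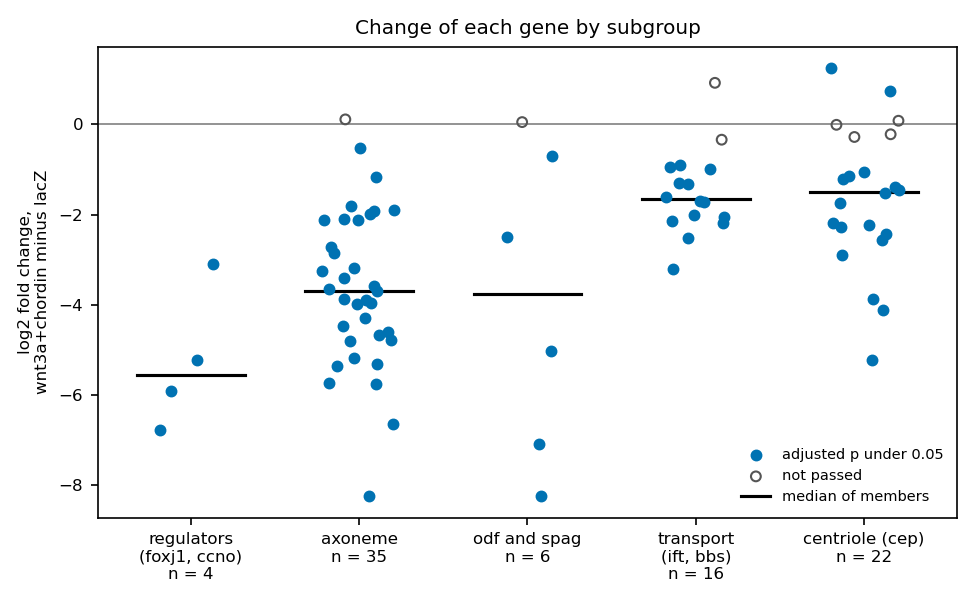
Log2 fold change of each gene, wnt3a+chordin minus lacZ (vertical axis), by subgroup; filled points passed adjusted p under 0.05, open points did not, and the black line is the median of the subgroup. The medians are -5.56 for the regulators, -3.7 for axoneme genes, -3.76 for odf and spag genes, -1.64 for transport genes and -1.49 for centriole genes, and the 2 filled points above 0 are cep63.L and cep192.L.

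The centriole genes were the most mixed. Of 22, 16 fell, 2 rose and 4 missed the threshold. Their median was -1.49. The largest falls were in cep41.S (11.3, 10.98 and 11.02 in lacZ caps, 6.01, 5.84 and 5.78 with wnt3a and chordin, log2 fold change -5.23, SE 0.35), which is needed for tubulin glutamylation in cilia, and in cep128.L (10.03, 9.5 and 9.64 and 5.47, 5.44 and 5.89, log2 fold change -4.12, SE 0.18), of the subdistal appendages of the mother centriole. Both were separate from lacZ on every array. The homeolog cep41.L changed by -3.87, cep170b.S by -2.89 and cep120.L, which acts in centriole elongation, by -2.57. The changes were -2.22 for cep135.L, of the cartwheel, and -1.39 for cep152.L, which recruits the kinase Plk4.

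The 2 genes that rose were cep63.L and cep192.L. The cep63.L values, for a partner of Cep152 in centriole duplication, were 7.29, 7.01 and 7.94 in lacZ caps and 8.77, 8.51 and 8.66 with wnt3a and chordin (log2 fold change 1.24, SE 0.24, adjusted p = 0.00195). Those of cep192.L, a scaffold of the material around centrosomes in mitosis, were 8.58, 8.33 and 8.22 and 9.18, 9.34 and 8.86 (log2 fold change 0.75, SE 0.21, adjusted p = 0.0136). Neither pair of groups overlapped, although the cep192.L call was lost with an array left out (adjusted p up to 0.0556). The genes that did not pass were cep68.L, cep85.L, cep85.S and cep290.L, with log2 fold changes of -0.28, -0.22, -0.01 and 0.08. The cep290.L probe set lay below the 25th percentile of every array (5.03 to 5.1), where the array measures little.

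Low signal also limits the size of the deepest falls. On all 3 wnt3a+chordin arrays 7 of the 83 lay below the 25th percentile: ccno.S, cep290.L, cfap299.L, cfap52.S, odf3.S, tekt2.L and tekt2.S. Not all of them are deep falls: cep290.L did not pass (log2 fold change 0.08) and cfap299.L changed by -1.17. No detection calls were used here, so a fold for these genes is the difference between measured values and is not given as a bound.

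Of the 12 genes with both homeologs on the list, both members fell in 11, and the exception was cep85. The difference between the homeologs' log2 fold changes ran from 0.06 for ift20 to 2.89 for tekt2, with a median of 0.96. Both tekt2 probe sets lay below the 25th percentile on every wnt3a+chordin array (means 3.41 ± 0.17 and 3.64 ± 0.36, SD, n = 3), so the 2.89 follows their lacZ levels of 8.76 ± 0.69 (.L) and 11.88 ± 0.28 (.S). For tekt2 the changes were -5.35 (.L) and -8.24 (.S), for foxj1 -3.09 and -5.22, and for cep41 -3.87 and -5.23. Probe sequences were not used here, so how far a probe set of one homeolog also reads the other was not tested.

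Genes of the same structures that carry other names were counted beside them, where 17.1% of all probe sets fell and 24.2% rose. Of 28 other axoneme and motility genes 26 fell (median -3.46), among them dynlrb2.S, a dynein light chain (-7.06), and meig1.S (-6.76). Of 20 other transport and basal body genes 16 fell (median -1.19), and of 19 other genes of multiciliated cell specification and centriole amplification 13 fell and 2 rose. The specification genes mcidas.S (-5.91), foxn4.S (-4.23) and myb.S (-1.58) and the centriole amplification gene ccdc78.S (-4.75) fell, and e2f4.S (1.22) and tacc3.S (0.93) rose.

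Markers of neighbouring cell types moved as well, in a comparison where 17.1% of all probe sets fell and 24.2% rose. Of 14 ionocyte genes 12 fell, with a median of -6.19 and array means of 10.15 to 10.53 in lacZ caps against 5.46 to 5.62 with wnt3a and chordin. Small secretory cell genes fell in 3 of 5 and genes of the non-neural ectoderm and outer epidermis in 18 of 25, where 1 rose. Both lists name itln1, so they are not separate sets. Neural plate genes rose in 11 of 13 and neural crest genes in 12 of 15. Their part in the fall of the ciliary genes was not tested.

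In caps labelled kctd15 without wnt3a and chordin, ciliary and centriolar genes were lower by a smaller amount. Of 83 genes 15 fell (limma, adjusted p under 0.05), where 4.31% of all probe sets were lower. None of the 83 rose (0 genes, against 2.68% of probe sets). At an unadjusted p under 0.05 there were 46 lower and 0 higher, but the share of all probe sets at that p was not counted. With the replicate number as a block the count was 29, against 7.74% of probe sets, and it held all of the 15; the other 14 were bbs7.L, cep41.L, cep57l1.L, cep83.L, cep152.L, cfap20.L, dnaaf3.L, dnaaf5.L, dnaaf5.S, drc1.L, ift43.L, ift57.S, ift74.L and odf2l.L. The median log2 fold change was -0.73, against 0.04 over all probe sets, and 76 of the 83 changes were below 0, against 13888 of 32475. The 3 arrays labelled kctd15 lay wholly below the lacZ arrays in 51 genes (11.5% of probe sets), and 71 were lower in all 3 differences between arrays of the same replicate number (23.4% of probe sets).

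The 15 genes were spread over the subgroups: 6 of 35 axoneme, 1 of 6 odf and spag, 3 of 16 transport and 5 of 22 centriole genes, and none of the 4 regulators. By median the log2 fold changes were -0.89 for odf and spag genes, -0.79 for axoneme genes, -0.71 for the regulators, -0.63 for transport genes and -0.42 for centriole genes. The foxj1.S values were 11.49, 11.53 and 11.8 (log2 fold change -0.48, adjusted p = 0.629) and those of ccno.L 11.08, 11.28 and 11.58 (-0.94, adjusted p = 0.49). Each of the 4 regulators lay below all lacZ arrays, by log2 differences that did not pass.

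The largest falls were in the tektin gene tekt3. The tekt3.S values were 10.37, 9.62 and 9.98 in lacZ caps and 7.46, 5.85 and 8.27 in caps labelled kctd15 (log2 fold change -2.8, SE 0.62, adjusted p = 0.0227), a 6.96-fold lower level, and those of tekt3.L were 9.43, 9.35 and 8.78 and 7.16, 6.38 and 7.56 (log2 fold change -2.16, SE 0.38, adjusted p = 0.00679). In both homeologs every array labelled kctd15 was below every lacZ array. No other tektin passed: the log2 fold changes of tekt1.L, tekt2.L, tekt2.S and tekt4.S lay between -0.94 and -0.72. The tekt3.S call was lost when single arrays of either group were left out, and the tekt3.L call was kept.

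**Figure D3:**
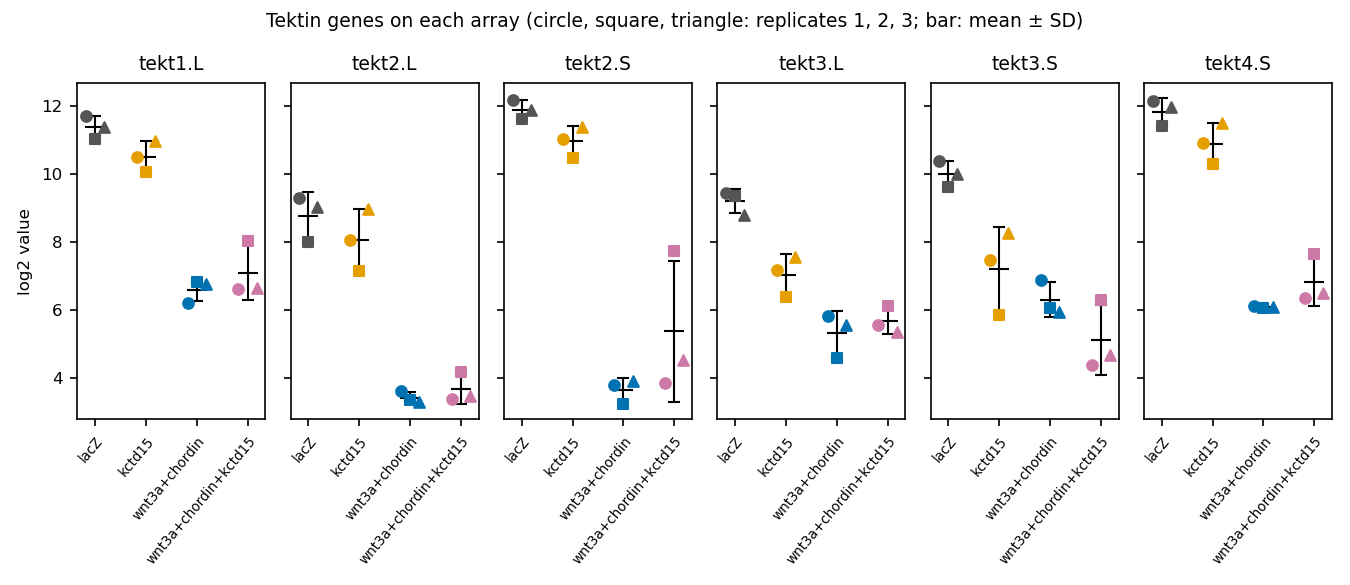
Log2 values of the 6 tektin genes on the 12 arrays by group, with the mean ± SD of 3 arrays as black bars. Between lacZ and kctd15 the step is largest in tekt3.L and tekt3.S, whereas with wnt3a and chordin all 6 are low; the square of wnt3a+chordin+kctd15, its replicate 2, stands above the other 2 arrays in each gene.

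Among centriole genes, cep128.L read 8.2, 8.29 and 8.68 in caps labelled kctd15 (log2 fold change -1.34, SE 0.18, adjusted p = 0.00191), all below lacZ. The falls of cep20.L (-1.08, SE 0.26) and cep68.L (-0.91, SE 0.16) followed, and cep70.L and cep120.L changed by -0.74 and -0.73. The cep68.L product ties the centriole pair of an interphase cell together, and its gene did not pass with wnt3a and chordin. Its values were 8.99, 8.89 and 8.63 in lacZ caps, 7.8, 7.88 and 8.1 in caps labelled kctd15 and 8.38, 8.56 and 8.72 with wnt3a and chordin.

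The mother centriole gene odf2.L fell with little spread between arrays, from 9.64, 9.62 and 9.64 to 8.57, 8.65 and 8.9 (log2 fold change -0.92, SE 0.14, adjusted p = 0.00304). Of the transport genes bbs12.L (-0.9), ift172.L (-0.8) and ift22.S (-0.72) fell, and of the axoneme genes, beside tekt3, cfap300.L (-0.91), dnal4.S (-0.77), dnaaf10.L (-0.66) and cfap36.L (-0.6). The dimmest probe sets of ift22.S (-0.16) and dnal4.S (-0.24) did not pass (limma, adjusted p = 0.606 and 0.74). Their means over the arrays, 5.0 and 4.18, lay below the 25th percentile of every array (5.03 to 5.1), where the array measures little. In ift57.S, spag6.L and cep41.L a dimmer probe set passed (adjusted p = 0.0179, 0.0251 and 0.0497) while the one used did not. The count thus depends on the choice of probe set.

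The array labelled kctd15 replicate 3 was nearest to lacZ. It was the highest of its group in 74 of 83 genes, and the share of all probe sets was not counted. The median difference of the 83 from the lacZ array of the same number was -0.33 there, against -0.92 and -0.87 for replicates 1 and 2. The neural plate list was also highest of the group there, at 8.75 against 7.6 and 7.74. Among the lacZ arrays the list was likewise highest on replicate 3, at 9.14 against 7.26 and 7.38. The kctd15.L probe set was also highest of the group labelled kctd15 on its replicate 3, at 6.43 against 4.17 and 3.77. The part of the list and of this probe set in the difference was not tested. The number of genes that passed ran from 4 to 23 with single arrays left out: 4 without replicate 1 or 2 of the group labelled kctd15 or without replicate 1 or 3 of lacZ, 6 without replicate 2 of lacZ, 8 without replicate 3 of wnt3a+chordin, and 23 without replicate 3 of the group labelled kctd15 or replicate 2 of wnt3a+chordin+kctd15. Without every array of replicate 1 it was 0 and without those of replicate 2 it was 2. The calls of cep128.L, cep68.L, odf2.L and tekt3.L held with each single array left out, and without replicate 3 of lacZ and replicate 2 of wnt3a+chordin+kctd15 9 of the 83 passed.

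Other epidermal and ectodermal gene lists were set beside these values, where 4.31% of all probe sets fell and 2.68% rose (7.74% fell with the block). The 14 ionocyte genes had a median log2 fold change of 0.06 in caps labelled kctd15, with none past the threshold (1 lower with the block). Of 25 genes of the non-neural ectoderm and outer epidermis 2 fell and 1 rose (median -0.45). Their array means were 11.48 to 11.82 against 12.11 to 12.25 in lacZ caps. Of 5 small secretory cell genes 1 fell (median -0.09, lowest change -3.06), with array means of 7.44 to 8.15 against 8.53 to 8.76. Of 15 neural crest genes 3 fell and 0 rose (median -0.48), and of 13 neural plate genes 0 fell and 1 rose (median 0.11). With the block 4 neural crest genes and 1 neural plate gene fell. The part of these lists in the ciliary values was not tested. Of 28 other axoneme and motility genes 4 fell (median -0.65, 9 with the block). Of 20 other transport and basal body genes 6 fell (median -0.68, 13 with the block). Of 19 other genes of multiciliated cell specification and centriole amplification 3 fell (cetn3.L, plk4.L and stil.L) and 1 rose (tfdp1.L), with a median of -0.47. With the block 4 of these 19 fell and 4 rose, where 7.63% of all probe sets rose. The specification genes mcidas.S, foxn4.S and myb.S did not pass (limma, adjusted p = 0.534, 0.0978 and 0.181). The transport and basal body genes that fell included arl6 (-1.37), which binds the BBSome, and tmem216.L (-0.99) of the transition zone.

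**Figure D4:**
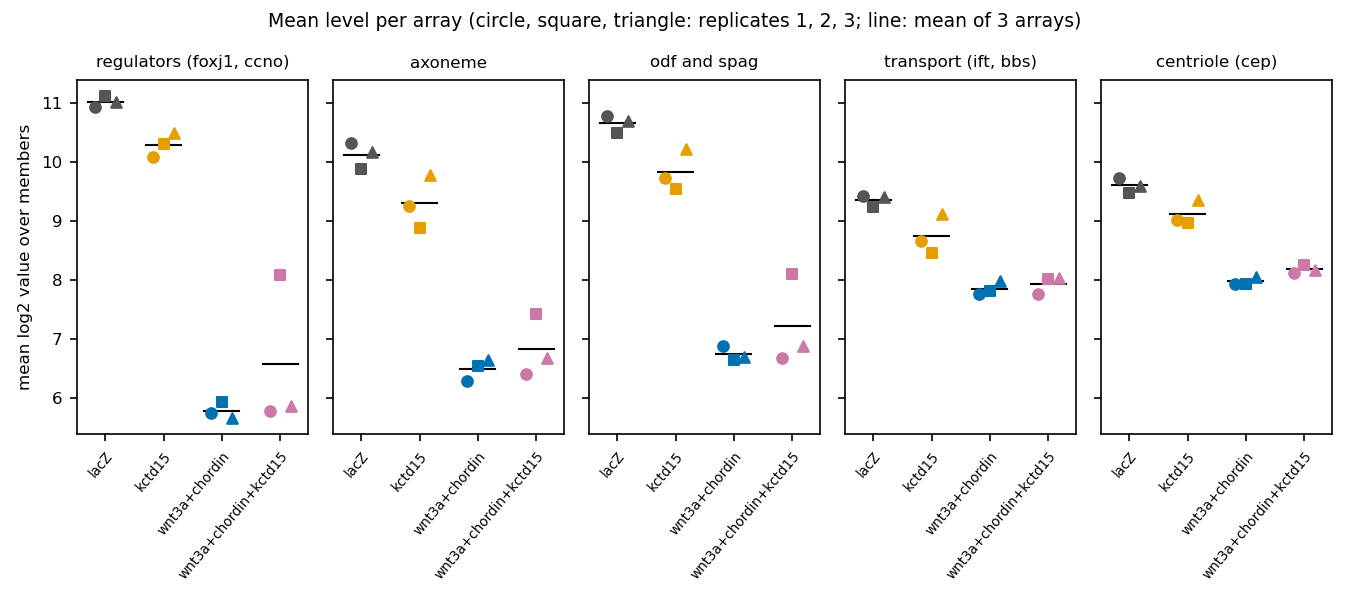
Mean log2 value over the genes of each subgroup on each array, by group; symbols mark the replicate number and the line is the mean of 3 arrays. Arrays labelled kctd15 lie between lacZ and wnt3a+chordin in each subgroup, and replicate 2 of wnt3a+chordin+kctd15 is well above the other 2 arrays of its group for regulators, axoneme genes and odf and spag genes.

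Between caps labelled wnt3a+chordin+kctd15 and wnt3a+chordin no change was called in these genes. Of the 83, 0 passed against wnt3a+chordin in limma, where 0.647% of probe sets did. At an unadjusted p under 0.05 there were 5 higher and 1 lower, again without a count over all probe sets. The median log2 fold change was 0.25, against 0 over all probe sets. In 10 genes the 3 arrays of wnt3a+chordin+kctd15 lay wholly above those of wnt3a+chordin (4.29% of probe sets), and in 0 genes wholly below (5.24% of probe sets). With the replicate number as a block cep83.L and cep128.L were called higher (adjusted p = 0.0151 and 0.0483), where 0.468% of probe sets were. Of 15 neural crest genes 4 fell in this comparison without the block (median -2.39), where 0.505% of probe sets fell. Genes of the non-neural ectoderm and outer epidermis fell in 4 of 25 (median -0.58). The part of these lists in the ciliary values was left untested.

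Replicate 2 of wnt3a+chordin+kctd15 held much of what stood above wnt3a+chordin. It exceeded the mean of the other 2 arrays of its group by more than 1 in 20 of the 83 genes. These were all 4 regulators, 12 axoneme genes, 3 odf and spag genes, 1 centriole gene and 0 transport genes. The share of all probe sets that did so was not counted. The foxj1.S values of the group were 7.16, 9.22 and 7.66 (log2 fold change against wnt3a+chordin 1.15, SE 0.42, adjusted p = 0.514). Those of ccno.L were 5.18, 8.34 and 5.64 and those of odf3.S 3.16, 7.31 and 3.68. In each of these 3 genes the second value stands above the other 2 and above every wnt3a+chordin array. Without this array and replicate 3 of lacZ, again 0 of the 83 passed.

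Ionocyte genes were raised on the same array, with a mean of 8.01 against 5.77 and 5.81 on the other 2, as were somitic muscle genes (above). Small secretory cell genes were also highest of the group there (7.59 against 5.86 and 6.49). So were genes of the non-neural ectoderm and outer epidermis (9.58 against 8.08 and 8.96), which read 8.42 to 9.72 on the wnt3a+chordin arrays. The neural plate list was lowest there, at 10.74 against 11.0 and 10.86. The chrd.1.S probe set read highest of the 12 arrays there (11.14), and the kctd15.L probe set read 6.77 there, against 3.52 and 5.18 on the others of the group. Their part in the ciliary values of that array was not tested. Differences between arrays of the same replicate number had a median of 0.7 for axoneme genes in replicate 2 and of 0.16 and 0.08 in replicates 1 and 3; for the regulators the medians were 2.08 against 0.01 and 0.1.

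Against lacZ, caps labelled with all 3 mRNAs had 74 genes lower and 3 higher, and 6 did not pass (17.6% of probe sets were lower and 24.3% higher). The median log2 fold change was -2.22. The 3 that rose were cep63.L (1.13, SE 0.24), cep192.L (0.84, SE 0.21) and bbs10.L (1.16, SE 0.43, adjusted p = 0.0493). The gene cep68.L, which did not pass with wnt3a and chordin alone, fell here (-0.52, adjusted p = 0.0218). With single arrays left out the bbs10.L and cep68.L calls were lost (adjusted p up to 0.178 and 0.0815). The lowest changes were those of odf3.S (-6.73) and tekt2.S (-6.52), with means of 4.72 ± 2.26 and 5.36 ± 2.07 (SD, n = 3), in which replicate 2 is the high array. Without replicate 3 of lacZ and replicate 2 of wnt3a+chordin+kctd15 73 were lower and 2 higher.

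Whether the change with the label kctd15 differed with and without wnt3a and chordin was asked by the interaction, the change from wnt3a+chordin to wnt3a+chordin+kctd15 minus the change from lacZ to kctd15. These 2 changes share no arrays. The interaction was above 0 and passed in 4 of the 83 genes, where 0.708% of probe sets did, and below 0 in 0 genes (0.434% of probe sets). At an unadjusted p under 0.05 there were 44 above 0 and 0 below, and the share of all probe sets was not counted. With the replicate block 9 passed, against 1.83% of probe sets: these 4 and cep120.L, cep83.L, dnal4.S, ift172.L and tekt3.L. The median interaction was 0.94, against -0.04 over all probe sets, and 5 of the 83 were below 0.

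The clearest case was cep128.L. Its values were 10.03, 9.5 and 9.64 for lacZ, 8.2, 8.29 and 8.68 for kctd15, 5.47, 5.44 and 5.89 for wnt3a+chordin and 6.53, 6.63 and 6.43 for wnt3a+chordin+kctd15. The arrays labelled kctd15 lay wholly below lacZ, and those of wnt3a+chordin+kctd15 wholly above wnt3a+chordin. The interaction was 2.26 (SE 0.26, adjusted p = 0.00457), made of a log2 fold change of -1.34 without wnt3a and chordin and one of 0.93 with them, the latter not past the threshold (adjusted p = 0.0579).

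The other 3 genes that passed were odf2.L (1.17, SE 0.2, adjusted p = 0.0235), cfap36.L (0.9, SE 0.18, adjusted p = 0.0456) and cep44.L (0.63, SE 0.13, adjusted p = 0.0467). Their calls were lost with single arrays left out, whereas that of cep128.L held with each one. Without every array of replicate 1, or every array of replicate 2, the cep128.L call was lost too. A dimmer probe set of cep44.L had an interaction of 0.67 and did not pass (limma, adjusted p = 0.0593). In odf2.L the values were 7.15, 7.25 and 7.03 with wnt3a and chordin and 7.3, 7.67 and 7.21 in wnt3a+chordin+kctd15 caps, and in cfap36.L they were 7.45, 7.33 and 7.3 and 7.69, 7.49 and 7.8. The cep44.L values were 8.7, 8.72 and 8.79 and 9.17, 9.21 and 9.03. These groups overlapped in odf2.L and were separate in cfap36.L and cep44.L. All 4 genes were lower in wnt3a+chordin caps than in lacZ caps, and the part of that lower level in the interaction was not tested. Without replicate 3 of lacZ and replicate 2 of wnt3a+chordin+kctd15 1 gene passed.

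**Figure D5:**
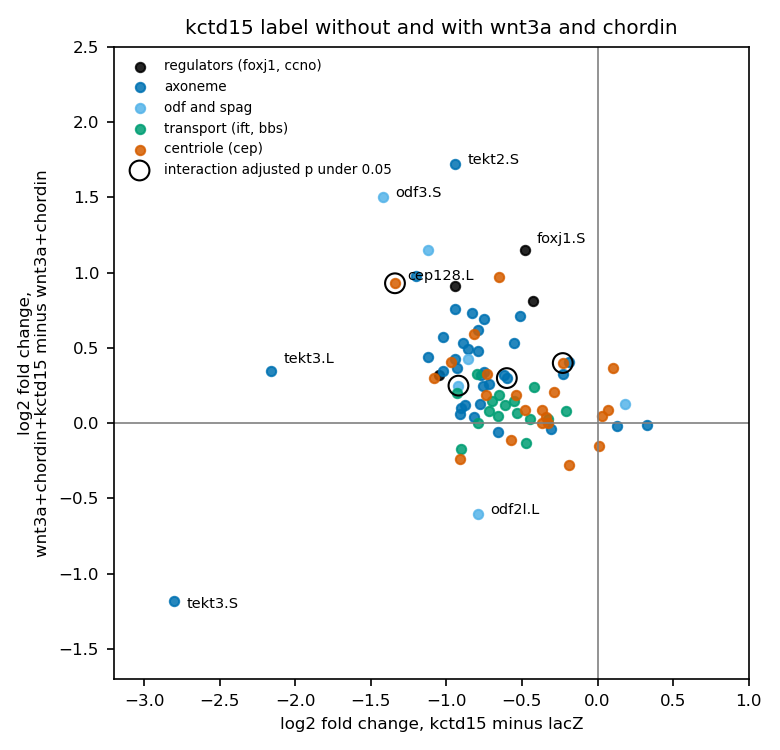
Log2 fold change of each gene with the label kctd15 against lacZ (horizontal axis) and of wnt3a+chordin+kctd15 against wnt3a+chordin (vertical axis), coloured by subgroup; rings mark the 4 genes whose interaction passed. Most points lie left of 0 and close to or above 0, and tekt3.S at -2.8 and -1.18 lies lowest on both axes.

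The tekt3 homeologs had log2 fold changes of opposite sign in this comparison, without passing, and the difference between them was not tested. The tekt3.S values in caps labelled with all 3 mRNAs were 4.38, 6.29 and 4.66, against 6.89, 6.05 and 5.95 with wnt3a and chordin (log2 fold change -1.18, SE 0.62, adjusted p = 0.921). Those of tekt3.L were 5.55, 6.1 and 5.36 against 5.83, 4.59 and 5.56 (0.35, SE 0.38). The groups overlapped in both, and the interactions of tekt3.L (2.5, adjusted p = 0.0579) and tekt3.S (1.62, adjusted p = 0.565) did not pass. With the block that of tekt3.L did (adjusted p = 0.0474).

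Spread between arrays differed by group and gene. Among the 83 genes, bbs10.L had the widest range on the lacZ arrays, followed by tekt2.L (9.28, 7.98 and 9.02), and dnai1.L (5.46, 6.73 and 6.55) and tekt3.L (5.83, 4.59 and 5.56) on the wnt3a+chordin arrays. None of these ranges reached the size of the gene's fall with wnt3a and chordin in tekt2.L, dnai1.L or tekt3.L.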

How the data were processed

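The authors deposited log2 expression values per probe set, processed with Partek per the submitters' processing notes. Its version, background step, summarisation and normalization were not given in the sources used here. Arrays give no depth, and their number (3 per group) limits the precision. Groups came from the sample titles. Of 32635 probe sets 96 controls and 64 reporters were left out. The other 32475 were tested together in limma 3.58.1 (R 4.3.3, 12 arrays, 4 group means, two-sided, Benjamini-Hochberg per contrast, threshold 0.05). The fit was also run on simulated arrays, drawn with no tie between arrays of the same replicate number. That run could not check the fit under the pairing described below. A single symbol was annotated by the platform for 15495 of the tested probe sets. Symbols were updated through the RefSeq annotation of assembly 10.1, which matched all 83. A gene with several probe sets (19 of 83) is given by the one with the highest mean. The members, the 11 gene lists beside them and the tests were chosen with earlier results of these data known. Genes named are foxj1 and ccno, the largest called changes per subgroup and prefix (the smallest p where none was called), the widest ranges and the most unequal homeologs; exceptions and genes without a call were added after their values were seen.

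Replicate numbers in the titles pair the arrays: deviations from group means correlated at 0.182 to 0.706 for the 18 pairs of arrays with 1 number, and at -0.511 to 0.103 for the 36 others. Deviations within a group sum to 0, so these ranges are not independent of each other. Because of the pairing the block is given where it changes a call, and all other values are from the fit without it. Alternatives were median centring, quantile normalization, no dim probe sets (mean log2 above 7.257 kept), array weights, a trended prior, the mean of a gene's probe sets, only the groups compared, and leaving out arrays. Promoter sequences were not used here.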

Additional observations from a re-analysis of the deposited data

Results flagged for a closer look

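The effect of the label kctd15 differed between caps with and without wnt3a and chordin in 4 genes by the interaction in limma. Only the cep128.L call held with each single array left out, and it was lost without every array of replicate 1 or of replicate 2. For cep128.L the interaction was 2.26, with log2 fold changes of -1.34 without and 0.93 with wnt3a and chordin. For odf2.L it was 1.17, from -0.92 and 0.25. For cfap36.L it was 0.9, from -0.6 and 0.3. For cep44.L it was 0.63, from -0.23 and 0.4. All 4 genes started from a lower level in wnt3a+chordin caps, and the part of that level in the difference was not tested.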

How the results depend on the processing

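The counts of genes past the threshold with wnt3a and chordin, alone or with the label kctd15, stayed within 1.5 times under every alternative: 68 to 75 and 65 to 77 of 83 with arrays left out, and by subgroup 32 to 34 axoneme, 4 to 5 odf and spag, 13 to 15 transport and 15 to 18 centriole genes for wnt3a and chordin alone. For the label kctd15 against lacZ the main count of 15 became 6 with only the groups compared, 29 with the replicate block, 9 without replicate 3 of lacZ and replicate 2 of wnt3a+chordin+kctd15 (chosen after seeing the data) and 0 to 23 with arrays left out. For wnt3a+chordin+kctd15 against wnt3a+chordin the count of 0 became 1 (cep128.L) without dim probe sets and 2 with the replicate block, and was 0 to 0 with arrays left out. The interaction count of 4 became 2 with median centring, 9 with the replicate block, 2 with a trended prior, 1 without the same 2 arrays and 0 to 13 with arrays left out. The causes were not tested. The block ended no call on the 83 genes in any of the 5 comparisons, and the calls it added are named in the text. Over 90 results on named genes, 2046 alternatives gave 1862 values on the same side of the threshold, 174 no longer past it, 10 newly past it and 0 of the other sign. Without dim probe sets tekt3.L, tekt3.S and ift172.L were among the genes not tested. Signal near the lower end of the array limits the deepest falls, and kctd15.L went against the labels.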

Other observations

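The Notch pathway, which limits how many epidermal precursors become multiciliated cells in Xenopus, was counted beside the ciliary genes. With wnt3a and chordin 7 of its 13 listed genes rose and 1 fell against lacZ (limma, adjusted p under 0.05), with a median log2 fold change of 1.11; 24.2% of all probe sets rose and 17.1% fell. In caps labelled kctd15, 1 rose and 2 fell (2.68% and 4.31% of probe sets), with a median of 0.03. The median for wnt3a+chordin+kctd15 against wnt3a+chordin was 0.22. The part of these genes in the ciliary values was not tested.

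Mesodermal genes varied between arrays of a group. With wnt3a and chordin 3 of 21 somitic muscle genes rose (median 0.88) and 1 of 11 notochord and axial mesoderm genes (median 0.65), shares below the 24.2% of all probe sets. The notochord list's mean was 7.11 on replicate 3 of lacZ, against 4.61 and 4.93 on the other lacZ arrays, and 7.73 on replicate 2 of wnt3a+chordin+kctd15, against 4.74 and 5.57. It was also 6.81 and 6.87 on replicates 2 and 3 of wnt3a+chordin, against 4.57 on replicate 1, and 6.21 on replicate 3 of the group labelled kctd15, against 4.54 and 4.38.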
